A study of Mus musculus with 4 samples.

Results

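The 10 genes described here are Ido1, Ido2, Wars, Kynu, Kmo, Nos2, Ass1, Arg1, Gch1 and Acod1. They encode enzymes of tryptophan use and breakdown, of arginine metabolism or, for Gch1, of cofactor synthesis. Acod1 encodes the enzyme that makes itaconate from the citric acid cycle intermediate cis-aconitate. All 10 are referred to below as the enzyme genes. The 10 genes were chosen by name, with earlier results of these data known. Each probe was tied to its gene through the RefSeq accession that the array files give. This yielded 15 probes of 39429 gene probes, for 10 of 20140 genes named on the array. Their RNA was measured in 4 groups of mouse tumor cells with 1 one-colour Agilent array each: LLC cells with interferon gamma (IFN-γ), LLC cells with vehicle, AB1-HA cells with IFN-γ, and AB1-HA cells with vehicle, each after 24 h. LLC (3LL in the sample titles) denotes Lewis lung carcinoma, of the strain labelled C57BL6. AB1-HA denotes a BALB/c mesothelioma line engineered to express an influenza hemagglutinin. The IFN-γ dose, the passage or clone of each line and whether cultures were pooled are not given in the sources used here. With 1 array per group there was no replicate, so no test was run, no p-value is given, and every difference below compares single arrays.

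IFN-γ, made by activated T cells and natural killer cells, acts in part through the transcription factor IRF1 and switches on enzymes that change the amino acids and metabolites around a cell. IDO1 and IDO2 open the tryptophan ring on the way to kynurenine, which KMO and KYNU process further, while the tryptophanyl-tRNA synthetase encoded by Wars loads tryptophan onto its transfer RNA. NOS2 turns arginine into nitric oxide and citrulline with the help of tetrahydrobiopterin, whose synthesis starts with GCH1. ASS1 takes citrulline back toward arginine, ARG1 splits arginine into ornithine and urea, and ACOD1 converts cis-aconitate into itaconate, an inhibitor of succinate dehydrogenase that is best known from activated macrophages.

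Signals are the scanner's background-subtracted intensities, before scaling. Differences are log2 differences after each array was scaled to its own 75th percentile, which was 1400 and 1598 for LLC with IFN-γ and vehicle, and 1419 and 1380 for AB1-HA with IFN-γ and vehicle. Genes are called higher or lower from 2-fold on, which is a cut by size alone. On each array, 57.5% to 58.2% of gene probes were well above background by the scanner's mark, and no spot was saturated. Where a probe fell below that mark on a single array of a pair, its difference is a bound ("at least"), taken against the lowest signal that was well above background on that array (7.01 to 8.26). The SD of the difference among repeat spots of a probe had a median of 0.04 in LLC and 0.06 in AB1-HA on the log2 scale, and of 0.28 and 0.24 for signals under 32, which covers spot noise and neither culture nor labelling. Scaling by array medians moved the median LLC IFN-γ difference of all genes by −0.14, that between the lines with IFN-γ by −0.13 and that of the effects by −0.14, and cyclic loess moved that between the vehicle arrays by 0.15 and that of the effects by −0.12.

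Of the 10 genes, 8 were well above background in LLC with IFN-γ and 6 in LLC with vehicle, and 8 in AB1-HA with IFN-γ and 5 in AB1-HA with vehicle. Wars, Kmo, Nos2, Ass1 and Gch1 were detected on all 4 arrays. Ido1 and Acod1 were detected on both IFN-γ arrays and on neither vehicle array, and Ido2 was missing on the AB1-HA vehicle array alone. Kynu and Arg1 were not well above background on any array. In bulk RNA, a larger share of cells expressing a gene and more RNA per cell cannot be told apart.

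In LLC, Ido2, Acod1 and Nos2 passed 2-fold upward with IFN-γ, or 3 of the 8 genes with a value, and none was lower. Over all 13426 genes with a value, 3.68% were higher and 1.46% lower. In AB1-HA, Ido1, Ido2, Wars and Acod1 were higher, or 4 of 8, and none was lower, against 2.99% higher and 1.17% lower of 13216 genes. The median difference of the valued enzyme genes was 0.85 in LLC and 1.65 in AB1-HA, where the medians of all genes were −0.06 and −0.08. The 10 genes were chosen with earlier results of these data known, so the shares of all genes give a scale and no test. Both the counts and the medians of the enzyme genes include bounds of genes that were detected with IFN-γ alone. Over the genes well above background on both arrays, 2 of 6 were higher in LLC and 1 of 5 in AB1-HA. The medians over those genes were 0.50 in LLC and 0.04 in AB1-HA, and with no background filter 0.90 and 0.31 over all 10 genes. Ido2 and Acod1 were thus past 2-fold in both lines, Nos2 in LLC, and Ido1 and Wars in AB1-HA.

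**Figure D1:**
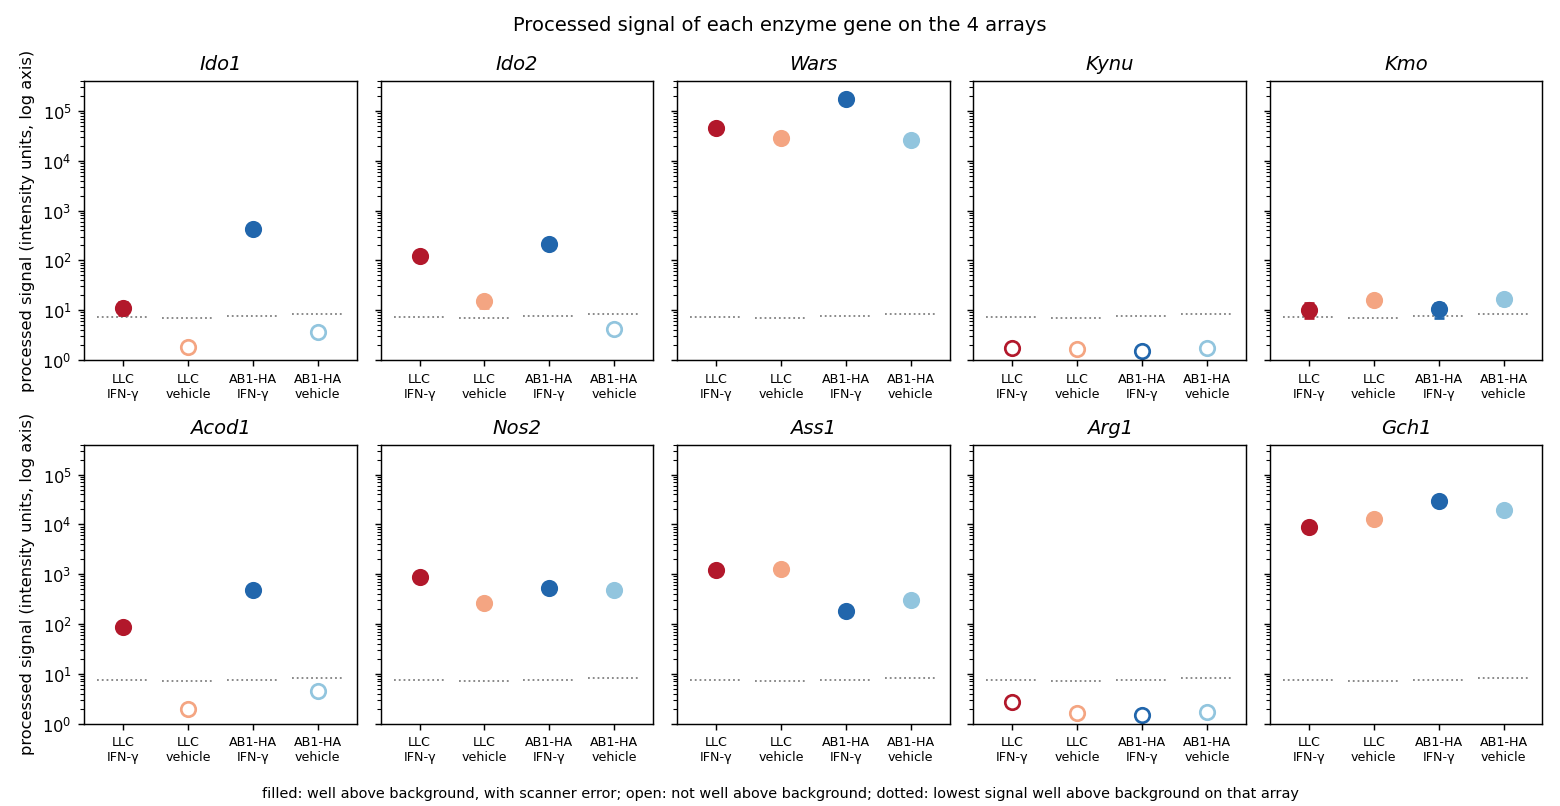
Processed signal (intensity units, log axis) of each gene on the 4 arrays, for the probe with the highest mean. Filled points were well above background and carry the scanner's error estimate, open points were not, and dotted lines mark the lowest signal well above background on that array. Ido1 and Acod1 are filled on both IFN-γ arrays and open on both vehicle arrays, and Kynu and Arg1 are open on all 4.

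Ido1, which encodes the main inducible enzyme of tryptophan breakdown, had the widest measured gap between the lines under IFN-γ among the 10 enzyme genes. Its signal was 11.1 in LLC with IFN-γ and 1.81 in LLC with vehicle, and 421 in AB1-HA with IFN-γ and 3.70 in AB1-HA with vehicle. The scanner's error was 3.28 for the LLC IFN-γ spot and 42.1 for the AB1-HA IFN-γ spot. Both vehicle spots were below the background mark, so in each line Ido1 was measured above background with IFN-γ and not with vehicle. In AB1-HA it was at least 49.5-fold higher with IFN-γ, more than 99.8% of genes. In LLC the bound was 1.81-fold, short of the 2-fold threshold. Under IFN-γ, the LLC signal was 37.3-fold lower than that of AB1-HA, a log2 difference of −5.22. The LLC signal in that gap lay near the lowest signal well above background on its array (7.39).

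Ido2, the paralogue of Ido1 with weaker activity on tryptophan, was present in both lines with IFN-γ. It read 121 in LLC with IFN-γ and 15.0 in LLC with vehicle, and 212 in AB1-HA with IFN-γ and 4.24 in AB1-HA with vehicle, where only the last was below the background mark. The difference was 9.22-fold in LLC and at least 24.9-fold in AB1-HA. Between the IFN-γ arrays of the lines, Ido2 stayed within 2-fold, with a log2 difference of −0.79 for LLC over AB1-HA. Normexp background correction, which adds an offset of 50 to every signal, lowered the LLC difference to 0.45, short of 2-fold, and that of AB1-HA to 1.87. It lowered the AB1-HA difference of Ido1 to 2.31, and moved the Ido1 difference between the IFN-γ arrays from −5.22 to −2.51.

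Wars had the brightest probe of the enzyme genes that rose. That probe read 45905 in LLC with IFN-γ and 29018 in LLC with vehicle, and 173967 in AB1-HA with IFN-γ and 25585 in AB1-HA with vehicle. The vehicle arrays of the lines were alike (−0.03), and the AB1-HA IFN-γ array stood above the other 3. Wars was 6.61-fold higher with IFN-γ in AB1-HA, while its LLC difference of 0.85 stayed under 2-fold. A second Wars probe read 1610 in LLC with IFN-γ and 889 in LLC with vehicle, and 8492 in AB1-HA with IFN-γ and 1102 in AB1-HA with vehicle. By that probe the difference was 2.07-fold in LLC and 7.50-fold in AB1-HA, so the LLC value lay on either side of the threshold depending on the probe.

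The enzyme genes downstream of kynurenine did not reach 2-fold with IFN-γ. Kmo, which encodes kynurenine 3-monooxygenase, read 10.2 in LLC with IFN-γ and 16.2 in LLC with vehicle, and 10.4 in AB1-HA with IFN-γ and 16.4 in AB1-HA with vehicle. The scanner's errors were 3.29 to 3.78, a large part of these dim signals, and the differences of −0.47 in LLC and −0.70 in AB1-HA stayed within 2-fold. A second Kmo probe was below background on all 4 arrays (1.53 to 2.09). Both probes of Kynu, the kynureninase gene, read 1.54 to 1.74 and were below background throughout.

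**Figure D2:**
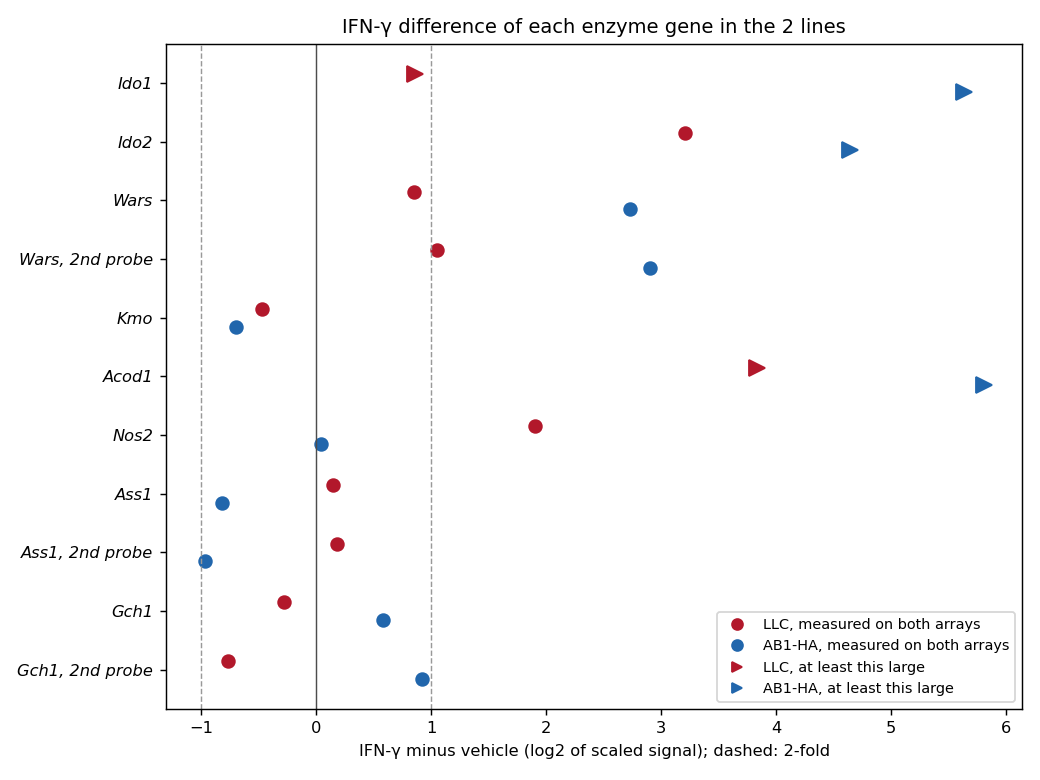
Log2 difference between the IFN-γ and the vehicle array in LLC (red, above) and AB1-HA (blue, below) for each probe with a value, where triangles mark differences that are at least as large as shown and dashed lines mark 2-fold. Ido1, Ido2, Wars and Acod1 lie to the right of the 2-fold line in AB1-HA, and Ido2, Acod1, Nos2 and the second Wars probe do in LLC.

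Nos2, the gene of inducible nitric oxide synthase, was higher with IFN-γ in LLC and not in AB1-HA. Its signal was 877 in LLC with IFN-γ and 268 in LLC with vehicle, and 516 in AB1-HA with IFN-γ and 488 in AB1-HA with vehicle. The difference was 3.74-fold in LLC (1.90 on the log2 scale) and 0.04 on the log2 scale in AB1-HA, a value that turned to −0.06 under normexp. With vehicle the LLC array was the lower one, 2.11-fold below AB1-HA with vehicle, and with IFN-γ the log2 difference of the lines was 0.78. The 2.11-fold gap fell just short of the threshold under cyclic loess (−0.99) and normexp (−0.97).

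Ass1, which encodes argininosuccinate synthase, was past 2-fold between the lines and not with IFN-γ. Its brighter probe read 1217 in LLC with IFN-γ and 1258 in LLC with vehicle, and 179 in AB1-HA with IFN-γ and 308 in AB1-HA with vehicle. Both LLC arrays lay above both AB1-HA arrays, by 3.53-fold with vehicle and 6.89-fold with IFN-γ. A second probe gave 440 in LLC with IFN-γ and 445 in LLC with vehicle, and 64.5 in AB1-HA with IFN-γ and 123 in AB1-HA with vehicle, for gaps between the lines of 3.12-fold and 6.92-fold. The IFN-γ difference was 0.14 and 0.18 by the 2 probes in LLC, and −0.82 and −0.97 in AB1-HA. The LLC value was −0.002 when arrays were scaled to their median. Arg1, the gene of the arginase that competes with NOS2 for arginine, read 2.76 in LLC with IFN-γ and 1.63 in LLC with vehicle, and 1.52 in AB1-HA with IFN-γ and 1.70 in AB1-HA with vehicle, all below background.

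Gch1, the gene of GTP cyclohydrolase, had IFN-γ differences of opposite sign in the 2 lines, within 2-fold in both. It read 9074 in LLC with IFN-γ and 12593 in LLC with vehicle, and 29838 in AB1-HA with IFN-γ and 19484 in AB1-HA with vehicle. The differences were −0.28 in LLC and 0.57 in AB1-HA. A second probe read 331 in LLC with IFN-γ and 642 in LLC with vehicle, and 1142 in AB1-HA with IFN-γ and 589 in AB1-HA with vehicle, with larger differences of −0.77 and 0.92. Under IFN-γ, Gch1 was 3.24-fold lower in LLC than in AB1-HA by the brighter probe and 3.40-fold lower by the other. Nos2 and the gene for its cofactor's synthesis thus differed in direction in LLC, at 1.90 and −0.28, and in AB1-HA neither reached 2-fold.

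Acod1 was detected on the IFN-γ array of each line and not on the vehicle array, so its IFN-γ differences are bounds. Its probe was printed in 10 spots on each array, which gave a measure of spot error for a dim gene. The spots averaged 87.9 ± 5.70 (SD, n = 10 spots) in LLC with IFN-γ and 2.02 ± 0.453 (SD, n = 10 spots) in LLC with vehicle. They averaged 474 ± 9.26 (SD, n = 9 spots, 1 left out as an outlier) in AB1-HA with IFN-γ and 5.01 ± 2.41 (SD, n = 10 spots) in AB1-HA with vehicle. The ranges of the IFN-γ spots, 80.7 to 98.4 in LLC and 465 to 493 in AB1-HA, did not overlap those of the vehicle spots, 1.60 to 3.08 in LLC and 1.79 to 9.46 in AB1-HA. Spots of 1 array are repeats of 1 RNA sample and say nothing of the spread between cultures. Acod1 was at least 14.3-fold higher with IFN-γ in LLC and at least 55.8-fold higher in AB1-HA, more than 99.4% and 99.8% of genes. Under IFN-γ the LLC signal was 5.33-fold lower than that of AB1-HA. Normexp lowered the log2 differences to 0.75 in LLC, short of 2-fold, and to 2.46 in AB1-HA.

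**Figure D3:**
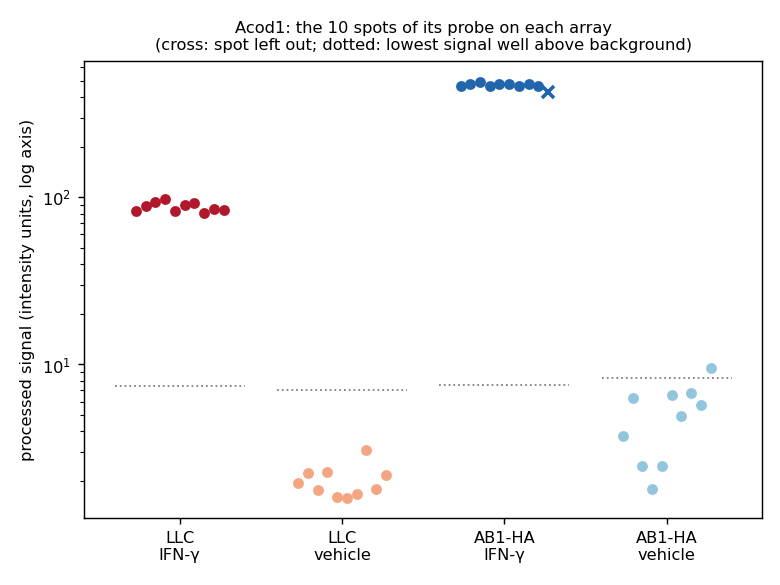
Processed signal (intensity units, log axis) of each of the 10 Acod1 spots on the 4 arrays, with a cross for the spot left out and dotted lines at the lowest signal well above background. The kept IFN-γ spots of each line form a tight group, 80.7 to 98.4 in LLC and 465 to 493 in AB1-HA, far above the vehicle spots. The spot left out, in AB1-HA with IFN-γ, read 426.

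Promoter windows of 300 bases, from 250 before to 50 after the start of transcription, were matched for 4 of the 10 genes (Kmo, Acod1, Ass1 and Gch1) in RefSeq sequences of GRCm38.p6. Those of Acod1, which was past 2-fold with IFN-γ in both lines, and of Ass1 and Gch1, whose differences had opposite signs in the 2 lines, are shown 5′ to 3′ on the gene's strand with motif matches in capitals. The Acod1 window is chr14:103046762-103047061 (plus strand), the Ass1 window chr2:31470020-31470319 (plus strand) and the Gch1 window chr14:47189364-47189663 (minus strand).
Acod1: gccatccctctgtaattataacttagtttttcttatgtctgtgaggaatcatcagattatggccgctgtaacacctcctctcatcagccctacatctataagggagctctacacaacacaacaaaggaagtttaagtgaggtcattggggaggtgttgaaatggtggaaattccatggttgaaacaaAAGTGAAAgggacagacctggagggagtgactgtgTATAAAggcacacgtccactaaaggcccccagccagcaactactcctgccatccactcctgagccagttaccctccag
Ass1: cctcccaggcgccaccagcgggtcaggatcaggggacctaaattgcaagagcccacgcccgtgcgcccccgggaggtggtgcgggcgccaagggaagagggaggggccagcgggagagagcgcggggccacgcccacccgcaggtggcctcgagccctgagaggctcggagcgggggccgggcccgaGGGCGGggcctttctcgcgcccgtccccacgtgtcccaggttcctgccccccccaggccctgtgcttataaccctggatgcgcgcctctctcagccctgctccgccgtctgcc
Gch1: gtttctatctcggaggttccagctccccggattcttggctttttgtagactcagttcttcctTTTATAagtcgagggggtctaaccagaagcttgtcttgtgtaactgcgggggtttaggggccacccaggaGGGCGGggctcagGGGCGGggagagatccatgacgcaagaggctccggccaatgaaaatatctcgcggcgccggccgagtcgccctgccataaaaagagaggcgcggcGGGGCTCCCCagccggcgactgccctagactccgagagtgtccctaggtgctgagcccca

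Both strands were searched for AANNGAAA, the core bound by IRF factors, and for the NF-kB site. The TATA box was searched as TATAAA. No match overlapped another in the windows shown, and the GC box was searched as GGGCGG. Acod1 held an IRF core starting at position −63 from the start of transcription and a TATA box at −28. Gch1 held an NF-kB site at −10, GC boxes at −118 and −105, and a TATA box on the opposite strand at −188, while Ass1 held a GC box at −63. Kmo, which did not reach 2-fold, held an IRF core as well, at −220. Among 32851 promoter windows of the same length, 23.9% held the IRF core, 8.46% the NF-kB site, 13.6% the TATA box and 35.7% the GC box. These matches describe the letters of the windows, with G and C making up 47.0% of the Acod1 window, 74.0% of that of Ass1 and 60.3% of that of Gch1.

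Between the lines, 2 of the enzyme genes were past 2-fold with vehicle and 5 with IFN-γ. The comparisons between lines and within lines share the same 4 arrays, so they are not independent. With vehicle, 6 genes had a value: Ass1 was higher in LLC and Nos2 lower, against 16.4% higher and 16.0% lower of 13849 genes. With IFN-γ, 8 genes had a value: Ass1 was higher in LLC and Ido1, Wars, Acod1 and Gch1 were lower, against 15.4% higher and 13.3% lower of 13906 genes. The medians of the enzyme genes were −0.13 with vehicle and −1.24 with IFN-γ, where those of all genes were −0.05 and 0.03. For the 5 genes detected on every array, the IFN-γ effect of LLC minus that of AB1-HA was 1.86 for Nos2, 0.96 for Ass1, 0.22 for Kmo, −0.86 for Gch1 and −1.87 for Wars. Nos2 and Wars were past 2-fold, which 2.54% of 12002 genes passed toward LLC and 1.69% toward AB1-HA. A second probe put Ass1 at 1.15 and Gch1 at −1.68, both past 2-fold.

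Ordered by scaled signal over the 4 arrays, Ido1, Ido2, Wars and Acod1 shared the same top: AB1-HA with IFN-γ was highest and LLC with IFN-γ next. Below these, the order of Ido1 and Acod1 on the vehicle arrays is not interpretable, since all were under the background mark. For Nos2 the LLC IFN-γ array was highest and the LLC vehicle array lowest, with the AB1-HA arrays between them and 0.04 apart. Ass1 ran from LLC with IFN-γ and LLC with vehicle, 0.14 apart, through AB1-HA with vehicle to AB1-HA with IFN-γ. For Gch1 the order was AB1-HA with IFN-γ, AB1-HA with vehicle, LLC with vehicle and LLC with IFN-γ, a span of 3.24-fold. Without replicates, whether neighbours in these orders differ beyond the spread between cultures was not tested.

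Genes with the most similar profile were sought among 12001 genes detected on all arrays, by the largest deviation over the 4 arrays after centring each log2 profile. Wars was followed most closely by A530032D15Rik (0.35), the histidine decarboxylase gene Hdc (0.43) and the interferon-inducible Samd9l (0.49). For Samd9l the signals were 3574 in LLC with IFN-γ and 1189 in LLC with vehicle, and 11001 in AB1-HA with IFN-γ and 1197 in AB1-HA with vehicle. The nearest profiles to Nos2 were those of Ly6i (0.24), 4930515G16Rik (0.24) and H1f8 (0.29). These neighbours were dim, at 14.0 to 51.8, 11.7 to 29.4 and 33.8 to 76.6, beside 268 to 877 for Nos2. Hdc (20.2 to 137) and Zfp974 (14.4 to 109), a neighbour of Ass1, held dim signals too. For signals under 32, the SD among repeat spots had a median of 0.28 in LLC and 0.24 in AB1-HA. Zfp974 (0.11), Nav1 (0.12) and Fbxo17 (0.15) lay nearest to Ass1, and Mmab (0.04), Khnyn (0.07) and Rock1 (0.11) nearest to Gch1. With 4 points per profile, this is a description of these arrays.

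Neighbouring pathway genes were set beside the enzymes in 6 lists with 74 genes in all. Over all genes with a value, 3.68% were higher with IFN-γ and 1.46% lower in LLC, and 2.99% and 1.17% in AB1-HA. Such shares leave few genes past 2-fold in lists of this size. In the 5 metabolic lists, no gene reached 2-fold with IFN-γ in either line. This held for kynurenine and NAD genes (8 with a value in each line, medians −0.06 in LLC and −0.10 in AB1-HA), for tryptophan supply and tRNA charging (12 in LLC and 11 in AB1-HA, medians 0.02 and −0.09) and for arginine, ornithine and nitric oxide genes (10 in each, medians 0.04 and 0.003). It also held for tetrahydrobiopterin genes (7 in LLC and 6 in AB1-HA, medians −0.09 and −0.22) and for citric acid cycle and itaconate-related genes (17 in each, medians −0.10 and −0.05). Beside the 2.73 of Wars in AB1-HA, Gars, the glycyl-tRNA synthetase gene, was at 0.19 in LLC and −0.11 in AB1-HA, and Wars2, the mitochondrial tryptophanyl enzyme, at −0.01 and −0.10. Sdha and Sdhb, subunits of the succinate dehydrogenase that itaconate inhibits, were at −0.32 and 0.10 in LLC and at 0.07 and −0.05 in AB1-HA. Gchfr, which encodes the feedback regulator of GCH1, was at −0.55 in LLC and −0.67 in AB1-HA.

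In the list of interferon regulators, 5 of 10 valued genes were higher in LLC and 4 of 9 in AB1-HA, with medians of 0.99 and 0.88. Over all genes with a value, 3.68% were higher in LLC and 2.99% in AB1-HA, which gives a scale and no test. Irf1, the transcription factor through which IFN-γ reaches many of its targets, read 116910 in LLC with IFN-γ and 6190 in LLC with vehicle, and 101699 in AB1-HA with IFN-γ and 4542 in AB1-HA with vehicle. It was 21.6-fold higher in LLC and 21.8-fold higher in AB1-HA, with a difference of effects of −0.01. Socs1, the JAK inhibitor gene, was 5.63-fold and 6.36-fold higher, and Stat3 3.18-fold and 4.47-fold, in LLC and AB1-HA in that order. Irf8, singled out after its values were seen, was 4.07-fold higher in LLC, at 4620 with IFN-γ and 1296 with vehicle, and was below background on both AB1-HA arrays (1.58 and 1.82). The NF-kB subunit genes Nfkb1 (−0.09 in LLC and −0.05 in AB1-HA) and Rela (−0.08 and −0.13) stayed within 2-fold. So did Cebpb (0.31 in LLC and 0.88 in AB1-HA), Hif1a (−0.08 and 0.12) and Bin1 (−0.19 and −0.33).

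**Figure D4:**
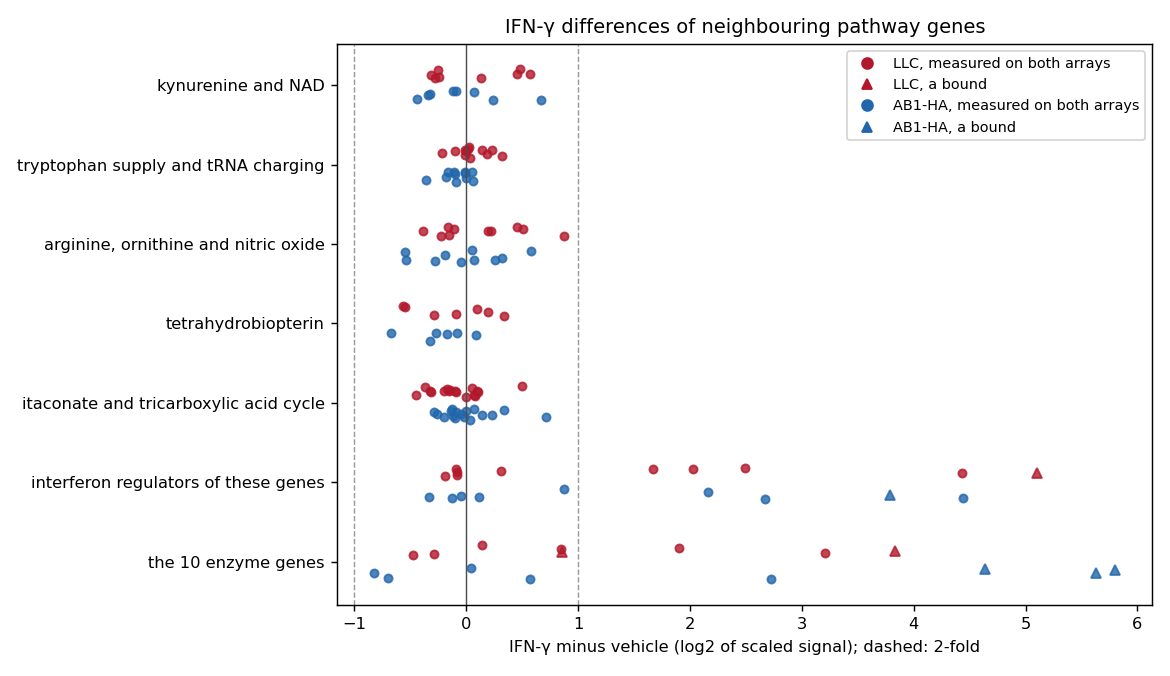
Log2 difference between the IFN-γ and the vehicle array for each gene of the 6 lists and for the 10 enzyme genes, in LLC (red, above) and AB1-HA (blue, below), where triangles are bounds and dashed lines mark 2-fold. The points of the 5 metabolic lists all lie within 2-fold, while the interferon regulators and the enzyme genes hold points beyond it.

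Between the lines, 15 genes of the 6 lists were higher in LLC and 7 lower with vehicle, of 64 with a value, and 13 and 5 with IFN-γ, of 65. Among all genes, 16.4% were higher and 16.0% lower with vehicle, and 15.4% and 13.3% with IFN-γ. The genes given here were singled out after their values were seen. Kyat1 and Kyat3, which encode the aminotransferases that make kynurenic acid, were 8.20-fold and at least 278-fold higher in LLC than in AB1-HA with vehicle, and Il4i1, which encodes an amino acid oxidase that acts on tryptophan, was 3.03-fold higher. Ahr, the receptor that kynurenine and other tryptophan products activate, was 2.35-fold lower in LLC with vehicle. Its target Cyp1a1 was at least 6.21-fold lower and its target Cyp1b1 at least 5.56-fold higher. Around arginine, Ddah1 (5.14-fold) and Ddah2 (3.67-fold), whose products break down a natural inhibitor of nitric oxide synthases, were higher in LLC with vehicle, and Nos3, the endothelial synthase gene, was 2.23-fold lower. Gatm, for the enzyme that passes arginine toward creatine, was at 2.79 on the log2 scale with IFN-γ. In tetrahydrobiopterin synthesis and recycling, Pts was 2.57-fold and Pcbd1 at least 64.1-fold higher in LLC with vehicle. With vehicle and with IFN-γ, all of these genes were past 2-fold in the same direction. In the citric acid cycle list, Clybl, for an enzyme that clears a product of itaconate, was at 2.54 in LLC over AB1-HA with vehicle, and Aco1 at −1.46.

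Several of the enzymes are best known from macrophages, so leukocyte markers were read on the same arrays. Of 12 such markers with a probe, 7 were well above background on each LLC array and 5 on each AB1-HA array. Their summed signals were 5856 in LLC with IFN-γ and 5886 in LLC with vehicle, and 5539 in AB1-HA with IFN-γ and 5118 in AB1-HA with vehicle. Ptprc (CD45), Adgre1 (F4/80), Lyz2, Tyrobp and Cd79a were below background on all 4 arrays. Itgam (3198 to 3698), Cd14 (809 to 1746), Cd3e (292 to 359), Fcer1g (36.0 to 51.6) and Csf1r were well above background on all 4, and Itgax and Mrc1 on both LLC arrays. Csf1r read 537 in LLC with IFN-γ and 183 in LLC with vehicle, with a difference of 1.74 beside the 1.90 of Nos2, and 520 in AB1-HA with IFN-γ and 644 in AB1-HA with vehicle, and its part in the result was not tested. Of 10 mesothelial markers, 6 were well above background in LLC with IFN-γ and 4 in LLC with vehicle, and 5 in AB1-HA with IFN-γ and 6 in AB1-HA with vehicle. Msln, the mesothelial surface antigen, read 50.1 in LLC with IFN-γ and 154 in LLC with vehicle, and 38827 in AB1-HA with IFN-γ and 50299 in AB1-HA with vehicle. Pdpn was high in AB1-HA (9458 with IFN-γ and 8991 with vehicle), while the keratin gene Krt18 was high in LLC (92310 with IFN-γ and 134098 with vehicle) and read 85.9 and 239 in AB1-HA. Krt19 was well above background on all 4 arrays, and Wt1, Upk3b, Lrrn4 and Calb2 were below it on all 4. Of 10 lung epithelial markers, 2 were well above background in LLC with IFN-γ and 4 on each of the other 3 arrays. Abca3 (3904 to 7178) and Scgb1a1 (19.0 to 42.4) were among them on all 4, and Napsa read 373 in AB1-HA with IFN-γ and 328 in AB1-HA with vehicle. Epcam, Cdh1, Nkx2-1, Sftpa1, Sftpb and Sftpc were below background on all 4 arrays. Of 10 fibroblast and mesenchymal markers, 8 were well above background in LLC with IFN-γ and 9 in LLC with vehicle. In AB1-HA 9 were with IFN-γ and 10 with vehicle. The signals differed more than these counts. With vehicle and with IFN-γ, Col1a1, Col1a2 and Pdgfrb were past 2-fold lower in LLC, and Acta2 and Pdgfra higher. Vim, Col3a1, Fn1 and S100a4 stayed within 2-fold. Col1a2 read 15.5 in LLC with IFN-γ and 17.5 in LLC with vehicle, and 58036 in AB1-HA with IFN-γ and 62880 in AB1-HA with vehicle.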

How the data were processed

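Per the labels' protocols, total RNA was labelled with Cy3 and hybridised to 1-colour arrays. The deposited signals are intensity values per spot. Background subtraction was by Agilent Feature Extraction, version 10.7.1.1 per the file headers, with no normalization between arrays. The log2 values of the authors' deposited table had unstated scale and centring. Set against the scanner signals, they matched log2 signals scaled to the 75th percentile and centred per probe (r = 1.00 on each array, same direction), with column medians of 0.08 and −0.13 for LLC (IFN-γ, vehicle) and −0.08 and 0.11 for AB1-HA (IFN-γ, vehicle).

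Outlier spots (166 to 201 per array) and control spots were left out, and repeat spots were averaged on the log2 scale. A probe was well above background where at least 0.5 of its spots carried the scanner's mark. Accessions were matched to RefSeq names of GRCm38.p6, which named 26581 of 39429 probes. The array annotation is of another build, so no probe position is given, and the promoter windows carry the positions of the RefSeq table. A gene with several probes was called by the one with the highest mean, and every probe of the 10 genes is given. The members, lists and tests were chosen with earlier results of these data known. By rule the text names all 10 members, Irf1, up to 4 genes per pathway list past 2-fold with IFN-γ and the 3 closest profiles. Some genes of the lists are counted and not reported here by name. The number of arrays limits the precision. The code that makes the calls was run on simulated arrays that held spot noise alone. That run checks the code and says nothing of the spread between cultures. Alternatives were other scalings, normexp on median spot signals, the authors' table, other background filters, probe averages and a 1.5-fold threshold. Software was R 4.3.3 (limma 3.58.1) and Python 3.11.15 (pandas 2.3.3, numpy 2.4.6, matplotlib 3.10.9).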

Additional observations from a re-analysis of the deposited data

Results flagged for a closer look

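Ass1 and Gch1 had IFN-γ differences of opposite sign in the 2 lines. For Ass1, after scaling, the IFN-γ array was above the vehicle array in LLC and below it in AB1-HA. The effect of LLC minus that of AB1-HA was 0.96 on the log2 scale (0.14 and −0.82). Before scaling, both probes read slightly lower with IFN-γ in LLC, at 1217 against 1258 and 440 against 445 with vehicle. The LLC value was −0.002 under array median scaling, where the signs no longer opposed. For Gch1 the IFN-γ array was below the vehicle array in LLC and above it in AB1-HA, with a difference of effects of −0.86 (−0.28 and 0.57). With 1 array per group, neither difference was tested.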

How the results depend on the processing

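Of 35 differences of the 10 genes, 16 were past 2-fold, and 13 of these kept their sign and stayed past 2-fold under every alternative that gave a value. The exceptions were Ido2 and Acod1 in LLC, at 0.45 and 0.75 under normexp, and Nos2 between the vehicle arrays, at −0.99 under cyclic loess and −0.97 under normexp. The number of genes past 2-fold with IFN-γ in LLC was 3, but 1 (Nos2) under normexp, 2 over genes well above background on both arrays, 4 in the authors' table or with no filter and 5 at 1.5-fold. In AB1-HA it was 4, but 1 (Wars) over genes well above background on both arrays, since the other 3 are bounds, and 6 at 1.5-fold with Kmo and Ass1 lower. Between the vehicle arrays it was 2, but 1 (Ass1) under cyclic loess and under normexp, 4 at 1.5-fold and 5 with no background filter. For the difference of IFN-γ effects it was 2, but 6 with no background filter and 4 with the mean or the median over probes or at 1.5-fold, which add Ass1 and Gch1. Without the filter, Ido1 in LLC was at 2.81, against a vehicle signal under the background mark. Of the differences within 2-fold, 7 changed sign under some alternative, among them Kmo in LLC (0.16 under normexp). Over all genes, 71.6% of those past 2-fold in LLC were higher, and 55.5%, 60.0%, 55.7% and 89.5% under array median, quantile, loess and normexp settings. In AB1-HA the share was 71.9%, but 80.7% under loess and 92.2% under normexp. The share toward LLC among effects past 2-fold was 60.0%, but 39.9%, 47.0% and 36.0% under array median, quantile and loess scaling. All 4 arrays lay on 1 slide. Signals near background limit Ido1 in LLC and Kmo. No paired analysis was possible because each group has 1 array.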
